A study of Mus musculus with 79 samples.

Results

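The step examined here is the change between day 4 and day 6 in embryoid bodies of a mouse embryonic stem cell (ESC) line that lacks the 3 DNA methyltransferase genes Dnmt1, Dnmt3a and Dnmt3b (DNMT KO). It rests on 3 libraries of DNMT KO at day 6 set against 3 at day 4, 6 of the 79 libraries of the series, chosen by their labels alone. Beside them stand the same days in its parental wild-type line (DNMT WT, 2 libraries at day 4 and 3 at day 6) and in TET WT (3 and 3), the parental line of a Tet1, Tet2 and Tet3 knockout. All 4 lines of the series were grown in 2i/LIF, a medium that holds ESCs in the naive state, before they were differentiated as embryoid bodies, and no other treatment is named. Every genotype is represented by 1 line, and the deletion cannot be told apart from other differences between the lines. The labels do not say that libraries of a group came from separate cultures, so p-values measure only the spread between these samples. RNA was captured with oligo-dT and read by strand-specific sequencing. Levels are RPKM (reads per kilobase of gene and per M reads of the library), and the 6 DNMT KO libraries held 10.1 to 12.7 M reads, at which 1 read on a gene of 2 kb is worth 0.0394 to 0.0495 RPKM.

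Embryoid bodies are floating aggregates in which ESCs leave pluripotency and form derivatives of all germ layers without a fixed body plan. Cells first pass a state like the primitive streak, marked by T, Eomes and Mixl1 under Nodal and Wnt signals, and mesoderm then branches into lateral plate, heart, vessel and primitive blood fates, many of them driven by BMP. DNA methylation at CpG dinucleotides is laid down by Dnmt3a and Dnmt3b and copied at replication by Dnmt1. It holds germline genes and some placental genes silent in embryonic cells, and ESCs without it still divide.

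The labels were first checked on the targeted genes. Dnmt1 measured 4.76 to 6.49 RPKM in the 6 DNMT KO libraries and 39.7 to 41.6 in the 5 DNMT WT libraries. Dnmt3a measured 2.25 to 2.67 RPKM in DNMT KO, against 16.4 and 15.7 in DNMT WT at day 4 and 8.67 to 9.41 at day 6. Dnmt3b went from 27.9 ± 0.902 to 16.6 ± 0.843 RPKM (SD, n = 3) in DNMT KO (log2 change -0.73, SE 0.10, adjusted p = 1.23e-05), below the size needed for a call, and in DNMT WT it stood at 316 and 321 RPKM at day 4. Which exons were removed is not stated in the labels, and reads from outside them check nothing. All 3 genes were lower in every DNMT KO library than in every DNMT WT library.

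Few genes moved in the knockout between the 2 days. Of 13489 genes tested, 146 were called higher at day 6 (1.08% of those tested) and 47 lower (0.348%), where a called gene has an adjusted p below 0.05 and changes by 1 or more, in either direction, on the scale of log2(RPKM + 0.5), which understates the change of low genes. In DNMT WT the same step gave 953 higher (7.07%) and 959 lower (7.11%), and in TET WT 1247 (9.24%) and 927 (6.87%). By adjusted p alone, at any size, the counts were 743 higher (5.51%) and 380 lower (2.82%) in DNMT KO and 3119 (23.1%) and 3371 (25.0%) in DNMT WT. With quantile normalization the share of higher among the knockout's calls went from 75.6% to 63.8%. The median size of the log2 change over all genes was 0.128 in DNMT KO, 0.337 in DNMT WT and 0.374 in TET WT. The genes called in DNMT KO were mostly low in level: 97 of the 146 that rose had a mean under 5 RPKM at day 6, and the highest, Krt8, reached 105. Of the 146, 70 were also called higher in DNMT WT, which is 47.9% of the knockout's calls and 7.35% of those in DNMT WT, and 6 were called lower there. Of the 47 that fell, 28 were called lower in DNMT WT (59.6% and 2.92%) and 7 higher. In the opposite direction, the 953 genes that rose in DNMT WT had a median log2 change of 1.64 there and 0.213 in DNMT KO, and the change was called smaller in the knockout for 716 of them (75.1%). For the 959 that fell in DNMT WT the medians were -1.41 and -0.061, and the change was called smaller in the knockout for 745 (77.7%). Both sets were chosen by the DNMT WT libraries that also enter the difference, which favours a smaller change in the knockout.

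**Figure D1:**
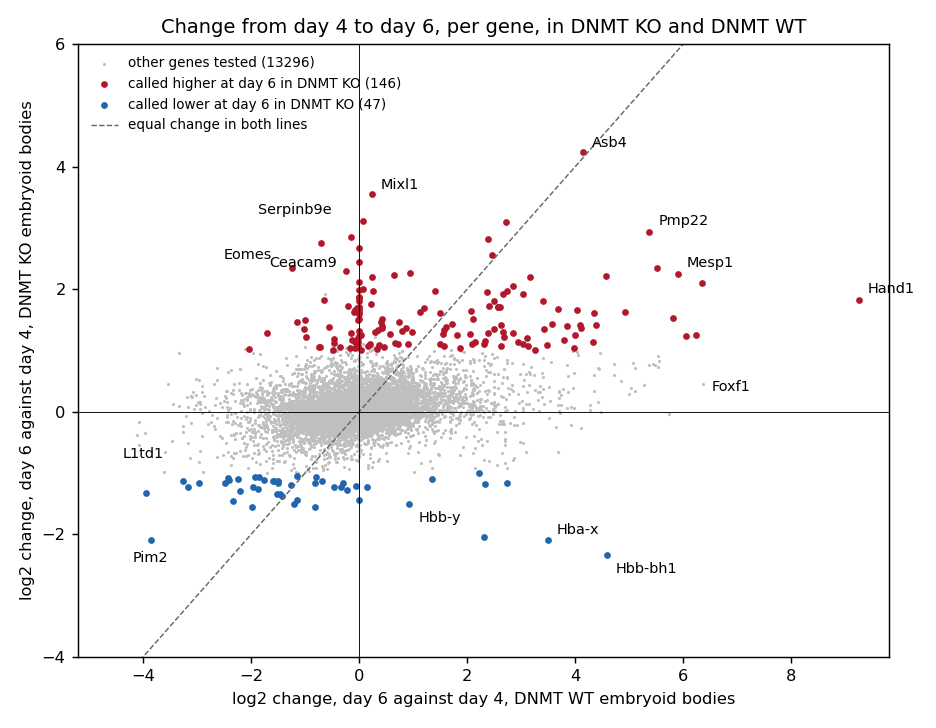
Each point is 1 of the 13489 genes tested, with its log2 change from day 4 to day 6 in DNMT WT (x axis) and DNMT KO (y axis). The 146 genes called higher in DNMT KO (red) and 47 called lower (blue) lie on both sides of the vertical line, with Asb4 near the line of equal change, Hand1 far to the right of it and Hbb-bh1 rising in DNMT WT while it fell in DNMT KO.

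The largest rise belonged to Asb4, a subunit of a ubiquitin ligase known from early blood-vessel and placental development. It measured 0.559, 0.513 and 0.681 RPKM in the 3 day 4 libraries and 20.97, 18.99 and 19.57 at day 6 (log2 change 4.23, SE 0.14, adjusted p = 5.66e-17). The days did not overlap, and DNMT WT rose as well, to between 16.0 and 17.4 RPKM (difference of the changes 0.09, SE 0.22, adjusted p = 0.805). Among genes named by size, several encode secreted or extracellular proteins. Mmp9, a gelatinase that cleaves basement membrane collagen, went from 0.724, 1.04 and 0.913 RPKM to 9.43, 9.4 and 9.53 (log2 change 2.85, adjusted p = 1.58e-11), while DNMT WT lay between 0.605 and 1.181 in all 5 libraries (difference 3.005, adjusted p = 1.36e-09). Sct, the hormone secretin, went from between 0.711 and 1.7 RPKM to between 9.82 and 12.9 (log2 change 2.82, adjusted p = 2.44e-08). Fgf10, a ligand of branching organs and of heart precursors, went from 0.768 ± 0.0109 to 5.34 ± 0.38 RPKM (SD, n = 3, log2 change 2.20, adjusted p = 3.74e-13). Tinagl1, a matrix glycoprotein, reached 5.79 ± 0.499 RPKM from 0.837 ± 0.0751 (log2 change 2.23, adjusted p = 1.66e-10). The rise of Fgf10 did not pass the size threshold for a difference from DNMT WT (-0.96, adjusted p = 9.39e-05), and that of Tinagl1 was larger in the knockout by 1.58 (adjusted p = 7.98e-06).

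Genes of the primitive streak and early mesoderm rose as a group in DNMT KO between day 4 and day 6. Of 20 tested list members (22 in the list), 10 were called higher and 0 lower, with a median log2 change of 1.003 beside 0.018 over all genes tested. Bulk libraries cannot tell fewer cells of a type from less RNA per cell, here and in all that follows. Mixl1, a homeobox gene of the streak, measured 0.359, 0.36 and 0.103 RPKM at day 4 and 9.99, 7.69 and 7.8 at day 6 (log2 change 3.55, SE 0.21, adjusted p = 2.1e-10). In DNMT WT it was already at 12.2 and 23.5 RPKM at day 4 and at 21.5, 18.7 and 20.1 at day 6, so the libraries of the 2 days overlapped there. The change of Mixl1 was larger in the knockout by 3.31 (SE 0.31, adjusted p = 4.36e-08). Eomes, a T-box factor needed for endoderm and for the trophoblast, stood at 3.61, 3.07 and 3.4 RPKM at day 4 and 17.4, 19.4 and 20.4 at day 6 (log2 change 2.34, adjusted p = 8.94e-14). In DNMT WT Eomes moved the other way, from 55.0 and 68.8 RPKM to between 25.4 and 26.6 (log2 change -1.24, adjusted p = 7.77e-09). At day 6 the knockout was thus still below DNMT WT in all 3 libraries, but rising where DNMT WT fell. T, the brachyury factor of the streak and notochord, measured 1.11, 0.911 and 1.5 RPKM and then 5.67, 8.2 and 7.52 (log2 change 2.19, adjusted p = 9.17e-10), against 20.9 to 37.7 in the 5 DNMT WT libraries (difference 1.96, adjusted p = 7.41e-07).

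**Figure D2:**
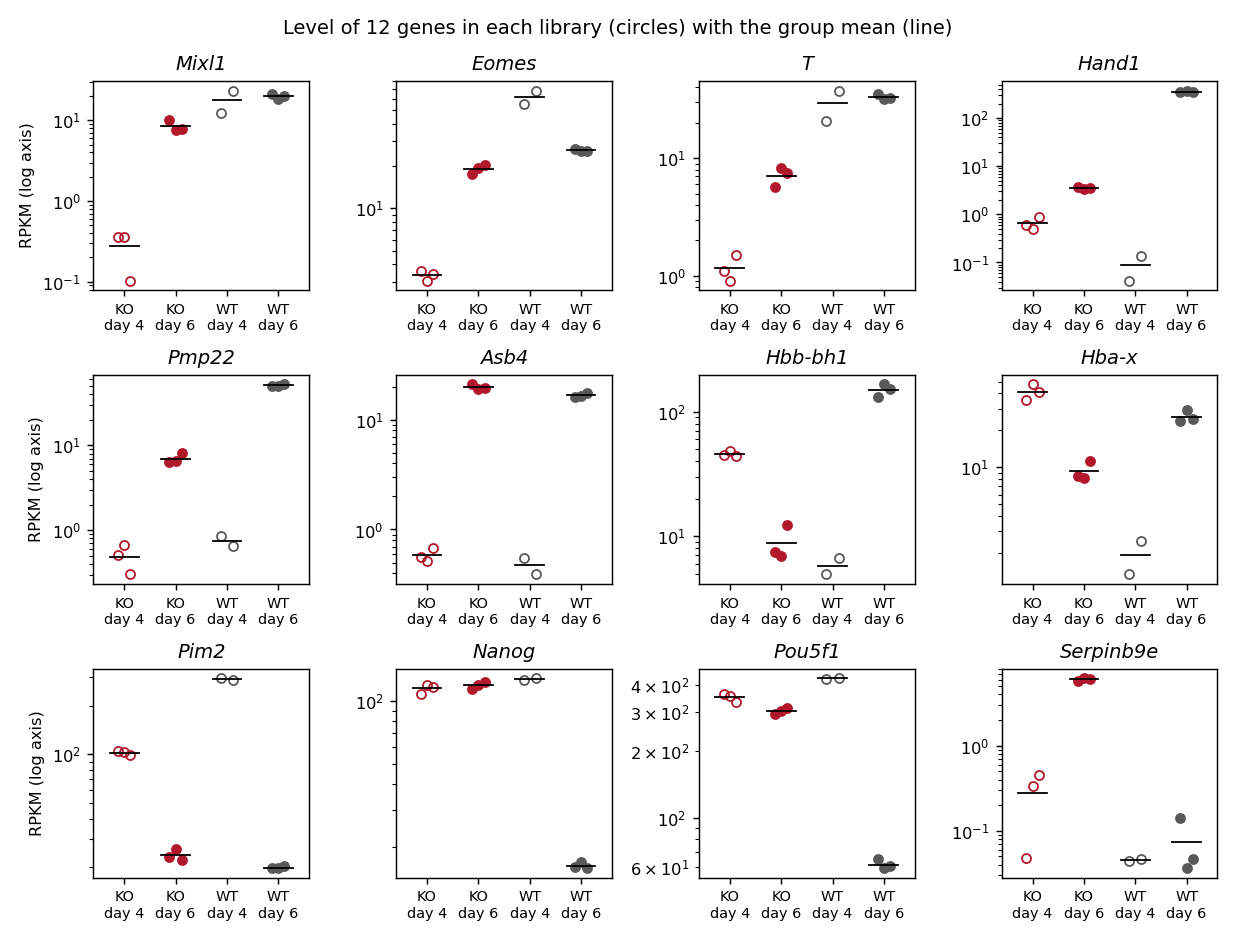
Level of 12 genes in each library (RPKM on a log axis, circles, open at day 4 and filled at day 6; lines are group means) in DNMT KO (red) and DNMT WT (grey). Mixl1, Eomes and T rise in the knockout toward levels that DNMT WT held at day 4, Hbb-bh1, Hba-x and Pim2 fall in the knockout, and Nanog and Pou5f1 fall in DNMT WT.

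The other streak genes that passed the test followed the same direction. Gsc, an organiser homeobox gene, went from 0.0722, 0.0651 and 0.186 RPKM to 4.33, 3.17 and 3.28 (log2 change 2.75, adjusted p = 2.39e-08), and its change exceeded that in DNMT WT by 3.45 (adjusted p = 7.06e-08). Lhx1, a LIM homeobox gene of the anterior streak, went from between 0.764 and 1.28 RPKM to between 7.58 and 8.57 (log2 change 2.56, adjusted p = 5.05e-08), a change that differed from that in DNMT WT by 0.10 (SE 0.33, adjusted p = 0.861). Sp5, a target of Wnt signalling, rose from 0.218, 1.57 and 1.43 RPKM to 7.45, 6.12 and 6.03 (log2 change 2.30, adjusted p = 2.17e-05). Day 4 libraries of Sp5 were spread widely, but all lay below those of day 6. Mesp1, the factor that marks the first heart and vessel mesoderm, reached a mean of 2.32 RPKM from 0.0617, against 41.6 in DNMT WT at day 6, and Evx1 reached 2.69 from 0.269. Cer1, a secreted Nodal and BMP antagonist, and Fgf8, a streak growth factor, completed the 10, at log2 changes of 1.13 and 1.05. The call of Fgf8 was lost when 1 of 2 libraries was left out, with a log2 change of 0.85 without DNMT KO day 4 replicate 1 and 0.89 without day 6 replicate 2. Among members that were not called, Wnt8a went from 1.17 to 2.7 RPKM (log2 change 0.95), Cdx2 from 0.174 to 0.752, Foxa2 from 0.859 to 1.38 and Nodal from 25.9 to 26.6. For 11 of the 20 the change was called more positive in the knockout than in DNMT WT and for 3 more negative, Mesp1, Cdx2 and Tbx6, all of which rose further in DNMT WT. In TET WT 10 of the 20 rose and 3 fell (median log2 change 1.05), and relative to TET WT, with the same DNMT KO libraries, the change was called more positive for 6 and more negative for 5 (median difference 0.159).

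The promoters of 3 of these genes are printed to show how they differ in CpG content, since CpG dinucleotides are the substrate of the deleted enzymes. Each is the 250 bases before the start site given by RefSeq on GRCm38.p6, 5′ to 3′ on the strand of the gene, with CpG dinucleotides in capitals, for Asb4 (chr6:5383136-5383385, plus strand), Eomes (chr9:118477939-118478188, plus strand) and T (chr17:8434173-8434422, plus strand).
Asb4: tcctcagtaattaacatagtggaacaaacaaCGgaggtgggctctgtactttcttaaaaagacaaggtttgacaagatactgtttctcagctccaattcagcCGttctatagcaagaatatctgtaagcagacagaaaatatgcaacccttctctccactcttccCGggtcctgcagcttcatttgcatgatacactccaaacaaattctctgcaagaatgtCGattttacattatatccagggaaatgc
Eomes: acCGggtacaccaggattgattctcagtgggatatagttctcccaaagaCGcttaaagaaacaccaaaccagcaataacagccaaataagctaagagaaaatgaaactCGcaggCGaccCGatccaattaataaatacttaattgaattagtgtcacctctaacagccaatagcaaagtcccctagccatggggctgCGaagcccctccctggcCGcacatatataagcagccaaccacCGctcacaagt
T: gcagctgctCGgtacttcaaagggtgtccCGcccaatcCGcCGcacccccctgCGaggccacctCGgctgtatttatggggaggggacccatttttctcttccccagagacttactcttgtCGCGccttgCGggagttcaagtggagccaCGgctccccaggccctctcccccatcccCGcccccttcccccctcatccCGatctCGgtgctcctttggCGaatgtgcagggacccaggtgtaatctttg
These 3 windows hold 4, 8 and 14 CpG dinucleotides. Counted over 300 bases (250 before the start and 50 after), the 8 streak genes that rose and had a RefSeq promoter held a median of 11 CpG (range 4 to 31), beside 21 over the 10099 tested genes with a promoter. Their motif content is a description of letters only: CCAAT, on either strand, was found in 5 of the 8 and in 39.6% of all, and AGATAA in 1 of the 8 and in 5.8% of all, each motif counted apart from others that may share its end bases.

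Lateral plate and extra-embryonic mesoderm genes rose too, but to far lower levels than those reached in DNMT WT. In DNMT KO 10 of 19 tested members were called higher and 0 lower (median log2 change 1.04). DNMT WT had 17 higher and 1 lower (median 4.34), and the change was called smaller in the knockout for 16 of the 19. Pmp22, a myelin and junction protein also made by early mesoderm, went from 0.505, 0.662 and 0.301 RPKM to 6.33, 6.47 and 8.11 (log2 change 2.925, adjusted p = 9.93e-15). In DNMT WT Pmp22 reached 49.9, 50.9 and 52.5, so that every knockout library at day 6 lay well below them (difference -2.44, adjusted p = 1.02e-10). Hand1, a bHLH factor of extra-embryonic mesoderm, heart and trophoblast, measured 0.596, 0.505 and 0.868 RPKM at day 4 and 3.73, 3.41 and 3.52 at day 6 (log2 change 1.82, adjusted p = 1.81e-08). DNMT WT started lower, at 0.042 and 0.135, and ended at 349, 375 and 350 (difference -7.43, SE 0.24, adjusted p = 6.68e-17). Its partner Hand2 held 0 reads in each of the 3 day 4 libraries and 24, 24 and 11 at day 6, at least 21.7-fold higher against a floor of 3 reads over the group, which like every floor here covers counting error only. The remaining members that rose were Snai1, which drives the epithelial-mesenchymal transition (1.62 ± 0.453 to 7.4 ± 0.195 RPKM, SD, n = 3), the homeobox genes Msx1 and Msx2, the zinc finger factor Gata4, Bmp2 and the growth factor receptors Pdgfra and Pdgfrb. Foxf1, Isl1, Tbx20 and Snai2 were not called in the knockout, at day 6 means of 0.248, 0.682, 0.268 and 0.46 RPKM, and stood at 46.4, 8.08, 12.7 and 20.3 in DNMT WT.

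The BMP list, ligands and target genes, showed the same split. In DNMT KO 4 of 15 tested members rose (Msx1, Msx2, Bmp5 and Bmp2) and 0 fell, while 13 rose in DNMT WT, and the change was called smaller in the knockout for 13. Bmp2 went from 1.42, 1.03 and 0.953 RPKM to 2.52, 3.07 and 2.92 (log2 change 1.04, adjusted p = 8.62e-06), a call lost without DNMT KO day 4 replicate 2 or 3 or day 6 replicate 2 (0.958 to 0.996). Bmp4, the ligand that patterns posterior mesoderm, went from 8.06 to 10.4 RPKM in the knockout (log2 change 0.34, not called) and from 2.12 to 52.2 in DNMT WT. The direct targets Id1, Id2 and Id3 went from 49.9 to 36.5, 14.5 to 8.18 and 20.5 to 19.99 RPKM (log2 changes -0.45, -0.79 and -0.032), and none was called, while all 3 rose in DNMT WT. By adjusted p alone, at any size, 6 of the 15 members were higher and 2 lower, and 12 had a positive log2 change. Msx1 and Msx2 thus rose by log2 changes of 1.66 and 1.53 in libraries where the 3 Id genes had negative log2 changes.

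Endoderm, heart and matrix genes gave smaller groups of calls. Of 18 endoderm regulators 6 rose and 0 fell in DNMT KO, against 13 and 2 in DNMT WT. Cxcr4, the receptor of the chemokine Cxcl12 and a surface marker of endoderm and mesoderm, went from 0.861, 1.22 and 0.784 RPKM to 6.18, 6.52 and 5.85 (log2 change 2.21, adjusted p = 2.6e-11). The keratins of simple epithelia moved with it: Krt19 went from 7.64 ± 0.985 to 30.7 ± 0.344 RPKM (log2 change 1.95, adjusted p = 9.11e-14) and Krt8 from a mean of 42.7 to 105 (1.29). Krt19 rose in DNMT WT too, and the difference of -0.43 was short of the size threshold. Gsc, Cer1 and Gata4 complete the 6, and the pioneer factors Foxa2 and Foxa1, Sox17 and Hnf4a were not called, at day 6 means of 1.38, 1.15, 1.43 and 1.21 RPKM. Of 9 cardiac transcription factors 3 rose (Hand1, Gata4, Hand2) and 7 rose in DNMT WT. Of 10 sarcomere genes 0 were called in the knockout, which is near the 1.43% called over all genes tested. Of 16 mesenchymal matrix genes 3 rose (Fbln2, Tgfbi and Col5a1; Tgfbi lost its call without DNMT KO day 4 replicate 2, at 0.996), against 12 in DNMT WT, where Col1a1 reached 41.2 RPKM beside 0.724 in the knockout. Visceral endoderm genes gave 3 calls of 23 (Rbp4, Apoc2 and Gata4, all higher), with Afp, its best known product, at 5.29 and 4.24 RPKM.

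Several placental genes went from no reads or nearly none at day 4 to reads in every library at day 6. They were picked out after their values were seen, from the names of families that are expressed in the placenta, and their members have close copies that share sequence, so single values are uncertain. The 26 genes of the prolactin family, hormones of the pituitary and the rodent placenta, held 0 reads in each of the 3 DNMT KO libraries at day 4 and 140, 121 and 117 at day 6, at least 139-fold higher against a floor of 3 reads over the group. In DNMT WT the family had 0 reads at day 4 in both libraries and 1, 0 and 0 at day 6. At day 6, 14 of the 26 had a read in DNMT KO, and the 5 that passed the filter on low values were called higher, as a gene silent at day 4 had to differ to pass. Prl7d1 gave the most reads of those named, with 0, 0 and 0 and then 58, 56 and 51 (at least 60.7-fold higher). Tpbpa, a marker of spongiotrophoblast, held 0 reads in each day 4 library and 47, 30 and 34 at day 6 (at least 40.8-fold higher), with 3, 0 and 1 in DNMT WT at day 6. Ceacam15 held 0, 0 and 0 reads and then 34, 30 and 21 (at least 31.3-fold higher). The 13 Psg genes, pregnancy-specific glycoproteins, went from 0, 1 and 2 reads to 53, 60 and 71. Serpinb9e, a protease inhibitor of a family expanded in the placenta, was the only one of these to enter the largest rises, at 0.0476, 0.334 and 0.451 RPKM and then 5.77, 6.23 and 6.07 (log2 change 3.11). The 6 placental Serpinb9 genes together were not silent at day 4, with 57 to 86 reads in each DNMT KO library, and held 294 to 308 at day 6.

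Of genes that act in trophoblast, Cdx2, Elf5, Gcm1 and Prl3d1 were low in the same libraries, while Eomes and Hand1 rose. Cdx2 held 9, 3 and 1 reads at day 4 and 17, 13 and 23 at day 6, against 989, 1173 and 1080 in DNMT WT at day 6, where it also marks posterior mesoderm. Elf5 held 0, 3 and 0 reads and then 3, 7 and 0, and Gcm1 0, 0 and 1 and then 5, 1 and 1. Prl3d1, the hormone of trophoblast giant cells, held 0 reads at day 4 and 1, 0 and 0 at day 6. Over the trophoblast list, which was written with the series' results known, 6 of 13 tested members rose and 0 fell in DNMT KO: Eomes, Hand1, Tpbpa, Krt7, Plac1 and Plac8. The summed level of its 19 genes was 226 to 228 RPKM at day 4 and 339 to 348 at day 6, most of it from Peg10 and Rhox5, which were not called (log2 changes 0.98 and -0.50). In DNMT WT 5 of the 13 rose and 2 fell, and the sum went from between 137 and 150 RPKM to between 1125 and 1164. The change was called more positive in the knockout than in DNMT WT for 6 members and more negative for 5. Eomes and Hand1 are also genes of mesoderm, and whether any part of these levels comes from cells of a trophoblast type was not tested.

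Promoters of the placental genes were poor in CpG. They are shown for Serpinb9e (chr13:33249358-33249607, plus strand), Prl7d1 (chr13:27716737-27716986, minus strand) and Ceacam9 (chr7:16721679-16721928, plus strand), from RefSeq on GRCm38.p6, as the 250 bases before the start site with CpG in capitals.
Serpinb9e: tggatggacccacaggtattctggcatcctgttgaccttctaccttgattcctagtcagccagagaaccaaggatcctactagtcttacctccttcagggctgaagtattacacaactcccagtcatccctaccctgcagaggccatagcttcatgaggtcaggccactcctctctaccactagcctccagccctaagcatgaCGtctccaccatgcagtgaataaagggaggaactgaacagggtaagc
Prl7d1: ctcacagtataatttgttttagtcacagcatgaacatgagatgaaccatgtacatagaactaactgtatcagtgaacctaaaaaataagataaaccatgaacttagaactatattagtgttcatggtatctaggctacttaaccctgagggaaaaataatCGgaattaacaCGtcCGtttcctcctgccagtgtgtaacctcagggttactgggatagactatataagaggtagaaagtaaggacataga
Ceacam9: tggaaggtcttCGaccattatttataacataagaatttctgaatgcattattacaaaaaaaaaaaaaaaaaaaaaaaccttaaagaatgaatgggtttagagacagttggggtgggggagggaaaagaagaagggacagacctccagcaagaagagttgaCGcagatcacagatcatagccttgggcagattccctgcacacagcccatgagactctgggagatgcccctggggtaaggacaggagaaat
The 3 windows hold 1, 3 and 2 CpG dinucleotides. Over 300 bases the 10 placental genes that rose held a median of 2 CpG (range 0 to 4). Low CpG content extended to the genes that rose in general: the 105 of the 146 with a promoter held a median of 8 and the 30 of the 47 that fell a median of 14, beside 21 over all tested genes with a promoter, 19 for genes that rose in DNMT WT and 15 for those that fell there. A window with 5 or fewer CpG was found in 33.3% of the genes that rose in DNMT KO and 26.7% of those that fell. The share was 13.7% of those that rose in DNMT WT, 18.0% of those that fell there and 7.94% of all. Genes that rose in DNMT KO include the 10 placental genes, all of which have 5 or fewer. The motif AGATAA, the core bound by GATA factors, searched on both strands and counted apart from motifs it may touch, was present in 17.1% of promoters of genes that rose in DNMT KO, 6.99% of those that rose in DNMT WT and 5.8% of all. Of the 18 genes behind the 17.1%, 4 are placental genes. Family members with closely similar windows, such as Prl2c5 and Prl7d1 or Serpinb9e and Serpinb9g, were counted as separate genes in these shares. In Prl2c5 and Prl7d1 the motif lies at the same position. The motif lies in the Prl7d1 window, 163 bases before the start, and is in neither other window. These shares describe letters in the windows, and methylation was not measured in the files used here.

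**Figure D3:**
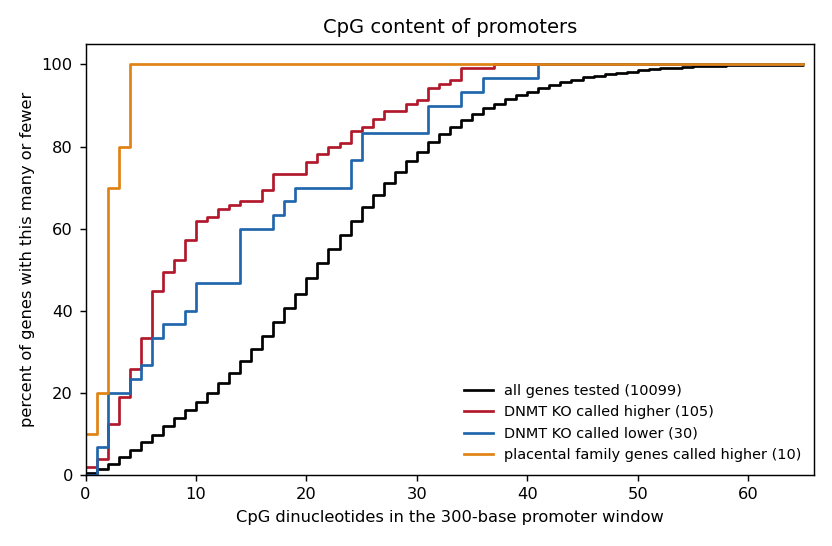
Share of genes (y axis, percent) with a given number of CpG dinucleotides or fewer (x axis) in the 300-base promoter window, for all tested genes with a RefSeq promoter (10099), genes called higher (105) or lower (30) in DNMT KO and placental family genes called higher (10). The curve of the genes called higher lies left of that of all genes, with medians of 8 and 21.

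Embryonic globins fell in DNMT KO between day 4 and day 6, the reverse of DNMT WT. Of 15 tested genes of the erythroid list (22 in the list), 6 were called lower and 0 higher in the knockout, with a median log2 change of -0.79, while 10 were called higher and 1 lower in DNMT WT. Hbb-bh1, the beta-type globin of the first yolk sac red cells, measured 44.6, 48.0 and 44.1 RPKM at day 4 and 7.45, 6.88 and 12.3 at day 6 (log2 change -2.34, SE 0.33, adjusted p = 0.000134). In DNMT WT it went from 4.92 and 6.62 to 130, 165 and 153 RPKM. Day 4 libraries of the knockout were thus all above those of DNMT WT, and day 6 libraries all below (difference -6.93, SE 0.50, adjusted p = 6.57e-09). Hba-x, the embryonic alpha-type globin, went from 35.2, 47.4 and 41.3 RPKM to 8.54, 8.17 and 11.3 (log2 change -2.09, adjusted p = 0.000373), with the opposite change in DNMT WT, from 1.34 and 2.5 to between 23.8 and 29.3. Hbb-y went from 36.6, 47.4 and 52.7 RPKM to 14.6, 15.6 and 16.7 (log2 change -1.50, adjusted p = 6.85e-07). In DNMT WT Hbb-y changed by 0.93 (adjusted p = 0.000285), from 1.85 and 2.52 to between 3.91 and 5.07, so that the knockout stayed above DNMT WT at both days. Hba-a1, whose near-identical copy Hba-a2 could take part of its reads, went from 4.2 ± 0.828 to 0.737 ± 0.575 RPKM (log2 change -2.04, adjusted p = 4.99e-06). The globins were not alone, since Alas2, the first enzyme of haem synthesis in red cells, went from a mean of 1.75 to 0.639 RPKM and Slc4a1, the anion exchanger of the red cell membrane, from 1.59 to 0.439, both called lower. The regulators Gata1 and Klf1 went from 0.844 to 0.364 and from 1.14 to 0.434 RPKM (log2 changes -0.65 and -0.84, short of the size threshold), and Tal1 from 3.09 to 2.49. By adjusted p alone 11 of the 15 were lower and 1 higher. That 1 gene, Zfpm1, the cofactor of Gata1, went from 7.21 to 12.1 RPKM.

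The promoter of Hbb-y is printed for the motifs through which globin genes are known to be regulated. It is the 250 bases before the RefSeq start on GRCm38.p6 (chr7:103853208-103853457, minus strand), with CCACCC and CCAAT in capitals. AGATAA and TATAAA (5.8% and 6.73% of all promoters) were searched too, on both strands, and are not in this window, which says nothing of the factors that bind them.
Hbb-y: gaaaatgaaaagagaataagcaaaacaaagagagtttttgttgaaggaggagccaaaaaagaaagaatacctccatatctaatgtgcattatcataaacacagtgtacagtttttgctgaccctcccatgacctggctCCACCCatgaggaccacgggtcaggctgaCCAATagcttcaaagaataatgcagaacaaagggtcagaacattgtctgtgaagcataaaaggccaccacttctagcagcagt
CCACCC, the core bound by Klf1 and its relatives, begins 112 bases before the start and CCAAT 83 bases before it. CCACCC was found in all 3 of the globin genes that fell and have a RefSeq promoter (Hbb-y, Hba-x and Hba-a1) and in 37.5% of all promoters. These 3 windows of 300 bases held 1 to 4 CpG.

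Of the haemangioblast and endothelial genes, 2 were called in the knockout, where 1.43% of all genes tested were. Of 15 haemangioblast genes, the common precursors of blood and vessels, 0 were called in DNMT KO and 13 rose in DNMT WT, and the change was called smaller in the knockout for the same number, 13. Etv2, the factor that starts this lineage, went from 4.97 to 8.73 RPKM (log2 change 0.76, not called), Kdr, the VEGF receptor, from 2.92 to 4.68 and Runx1 from 0.204 to 0.366. At day 4 their sum over the list was 85.0 to 91.7 RPKM in the knockout and 56.3 to 62.9 in DNMT WT, and at day 6 it was 92.6 to 96.7 and 125 to 130. Of 18 endothelial genes Aplnr rose, from 0.77 ± 0.0394 to 2.78 ± 0.249 RPKM (log2 change 1.37, adjusted p = 3.05e-10), and Tie1 fell. Tie1, a receptor of blood vessels, measured 2.03, 2.42 and 1.78 RPKM at day 4 and 0.72, 0.799 and 0.443 at day 6 (log2 change -1.17, adjusted p = 1.9e-05), while DNMT WT went from 0.153 and 0.147 to between 3.67 and 4.01. Of 11 blood genes Pf4, a platelet chemokine, rose from 0.34 to 1.91 RPKM and 0 fell, and Ptprc, which marks all white cells, held at most 1 read in each of the 6 libraries.

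The largest falls outside the globins were shared with DNMT WT in part. Pim2, a kinase that promotes growth and survival, measured 105, 104 and 99.3 RPKM at day 4 and 23.2, 25.9 and 22.1 at day 6 (log2 change -2.09, SE 0.14, adjusted p = 5.38e-11). In DNMT WT it fell further, from 297 and 290 to between 19.7 and 20.2, and the change differed by 1.76 (adjusted p = 1.86e-07). Slc27a2, a fatty acid transporter, went from 12.3 ± 0.74 to 4.58 ± 0.317 RPKM in the knockout, and its fall was larger in DNMT WT by 2.61. Dcaf12l1, an adaptor of a ubiquitin ligase, fell in both lines, by log2 changes of -1.35 in DNMT KO and -1.47 in DNMT WT, with a difference of 0.12 (SE 0.21). Sall2, Itga3, Sema6a, Dok2, Kif1a, Gng3, Fndc3c1 and Foxi3 were also among the falls named by size, at log2 changes between -1.55 and -1.13. Foxi3 lost its call without DNMT KO day 6 replicate 1 (log2 change -0.99). Fndc3c1 is the case in which the knockout fell further, from between 9.1 and 9.97 RPKM to between 3.38 and 4.05, while DNMT WT went from 17.9 and 19.3 to between 13.8 and 15.1 (difference -0.90, adjusted p = 0.000239, short of a call). The neural stem cell filament gene Nes fell as well, from 27.3 ± 0.936 to 12.6 ± 1.24 RPKM. Nes was the only 1 of 12 neuroectoderm genes to be called, where 1.43% of all genes tested were.

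Pluripotency genes were high in DNMT KO at both days. None of 16 naive and none of 10 general pluripotency genes was called in DNMT KO, where 1.43% of all genes tested were, so these counts are near that background. In DNMT WT, where 7.11% of all genes tested fell, 14 and 7 fell. The change was called more positive in the knockout for 14 and 7. Nanog, a core factor of the pluripotent state, stood at means of 115 and 119 RPKM at day 4 and day 6 in DNMT KO, and at 128 and 16.2 in DNMT WT. Pou5f1 (Oct4) measured 362, 357 and 336 RPKM and then 294, 304 and 315 (log2 change -0.21, adjusted p = 0.444), against 426 and 428 and then 59.0 to 64.7 in DNMT WT (difference 2.59, adjusted p = 2.06e-10). Klf2 went from 139 ± 5.27 to 173 ± 3.01 RPKM and Dppa5a from 761 ± 29.1 to 1100 ± 88.7, both short of the size threshold. By adjusted p alone 4 of the 16 naive genes were higher and 0 lower, and all 16 had a positive log2 change, beside 53.9% of all genes tested. The 10 general genes went the other way, with 3 positive and, by adjusted p alone, 0 higher and 2 lower. Their sum was 1300 to 1339 RPKM at day 4 and 1189 to 1235 at day 6, against 1309 to 1324 and 394 to 402 in DNMT WT. Summed over the 16, naive genes stood at 1352 to 1392 RPKM at day 4 and 1688 to 1872 at day 6, while DNMT WT went from 564 to 612 down to 102 to 110. Klf4 and Tbx3, which also act in mesoderm and endoderm, rose in DNMT WT and differed in the opposite sense. Formative genes, which mark the epiblast between the naive and the primed state, had a negative log2 change in 11 of 14 tested members: Sall2 fell, Fgf8 rose, and Pou3f1 (Oct6), Fgf5 and Sox3 had log2 changes of -0.98, -0.81 and -0.52, short of the size threshold.

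**Figure D4:**
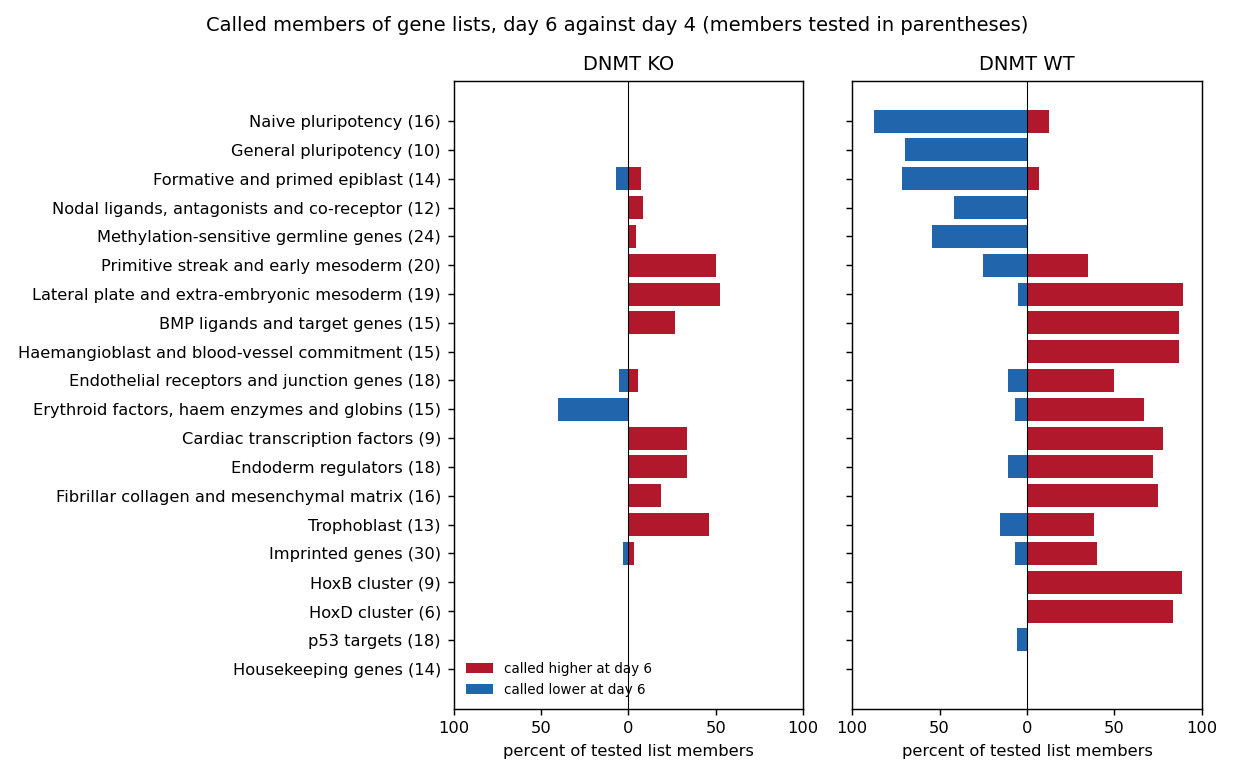
Percent of tested members of 20 gene lists called higher (red, to the right) or lower (blue, to the left) at day 6 in DNMT KO (left panel) and DNMT WT (right panel), with the number tested in parentheses. Naive pluripotency has no bar in the knockout and 14 of 16 lower in DNMT WT, and erythroid genes have 6 of 15 lower in the knockout and 10 of 15 higher in DNMT WT.

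Genes of the Nodal pathway were still present at day 6. Of 12 members Cer1 rose and 0 fell in the knockout, while 5 fell in DNMT WT, and the change was called more positive in the knockout for 7. Nodal itself, a ligand of the epiblast and streak, stood at 25.9 and 26.6 RPKM in DNMT KO and went from 30.0 to 5.17 in DNMT WT. Its antagonists Lefty1 and Lefty2 went from 29.3 to 35.4 and from 115 to 158 RPKM (not called), against 20.9 to 2.14 and 29.4 to 5.54. Of 12 Wnt targets Sp5 and Dkk1 rose and 0 fell. Dkk1, a Wnt antagonist, measured 0.83, 0.642 and 0.357 RPKM and then 4.76, 3.28 and 3.42 (log2 change 1.97, adjusted p = 4.28e-05), while Axin2, the general feedback target, went from 3.21 to 5.6 (log2 change 0.72, not called).

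Germline genes, which promoter methylation silences in embryonic cells, were high in the knockout at both days. Of 24 tested members (27 in the list) Taf7l rose and 0 fell in DNMT KO, which is near the 1.43% called over all genes tested. In DNMT WT 13 fell, and the change was called more positive in the knockout for 18. The list summed to 181 to 192 RPKM at day 4 and 199 to 211 at day 6 in DNMT KO, against 51.8 to 53.1 and 6.59 to 8.38 in DNMT WT. Taf7l, a germ cell paralogue of a general transcription factor, measured 1.39, 0.858 and 1.16 RPKM and then 4.19, 4.57 and 5.9 (log2 change 1.72, adjusted p = 1.27e-07). Dazl, an RNA-binding regulator of germ cells, went from 7.58 to 13.1 RPKM and Sohlh2 from 8.11 to 15.7 (log2 changes 0.75 and 0.91, short of the size threshold). Of 6 tested Rhox genes, an X-linked homeobox cluster of germ line and placenta with close copies, Rhox6 rose from 4.14 ± 0.609 to 12.6 ± 0.808 RPKM, with a fall in DNMT WT and a difference of 2.51 (adjusted p = 6e-05). Its call was lost with a pseudocount of 0.1 RPKM.

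The imprinted list, a selection of 32 genes, gave 2 calls in DNMT KO and the Hox lists 0, where 1.43% of all genes tested were called. Counts of 0 in lists of this size are near that background. Of the 30 tested genes of the imprinted list Cdkn1c rose and Magel2 fell in DNMT KO, while 12 rose and 2 fell in DNMT WT. Cdkn1c, an inhibitor of the cell cycle, measured 4.8, 4.0 and 5.64 RPKM at day 4 and 14.03, 12.5 and 13.2 at day 6 (log2 change 1.38, adjusted p = 2.44e-08), a change that differed from that of DNMT WT by -0.23 (adjusted p = 0.42). Magel2 went from 6.19 ± 0.504 to 2.57 ± 0.0564 RPKM and fell in DNMT WT as well. H19, a non-coding RNA, stood at means of 379 and 495 RPKM in the knockout (log2 change 0.39, not called) and rose from 54.7 in DNMT WT, and Igf2, its neighbour, was at 1.34 RPKM at day 6 against 55.1. Hox genes, which pattern the body axis, gave 0 calls among 5, 9, 6 and 6 tested members of clusters A to D in DNMT KO and 2, 8, 4 and 5 rises in DNMT WT. The HoxB sum was 0.664 to 1.10 RPKM at day 6 in the knockout and 28.4 to 29.6 in DNMT WT. Hoxd9 went from 0.129, 0.129 and 0.111 RPKM to 0.654, 0.493 and 0.417 (log2 change 0.71, adjusted p = 0.000483), a rise of few reads that was called with a pseudocount of 0.1 RPKM (1.46) and not at 0.5.

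The day 4 to day 6 step is part of a longer course. Of the 146 genes that rose, 94 had a higher mean at day 8 than at day 6 in DNMT KO, and of the 47 that fell 29 did so, given as means without a test. The 10 streak genes called higher at day 6 all had lower means at day 8. Mixl1 was at 0.673, 0.274, 8.49 and 1.25 RPKM over days 2, 4, 6 and 8, Eomes at 1.23, 3.36, 19.07 and 9.15 and T at 0.301, 1.17, 7.13 and 1.78. Cdx2, not called, went the other way, from a mean of 0.752 RPKM at day 6 to 2.51 at day 8. In DNMT WT Eomes was highest at day 4 (61.9 RPKM) and had fallen to 2.98 by day 8. Globins dipped at day 6 between higher values, with Hbb-bh1 at 1.08, 45.6, 8.86 and 59.8 RPKM in DNMT KO and 0.556, 5.77, 150 and 3060 in DNMT WT. Hand1 reached 31.7 RPKM at day 8 and Prl7d1 14.1, while Nanog stood at 130 in the knockout and 4.17 in DNMT WT.

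**Figure D5:**
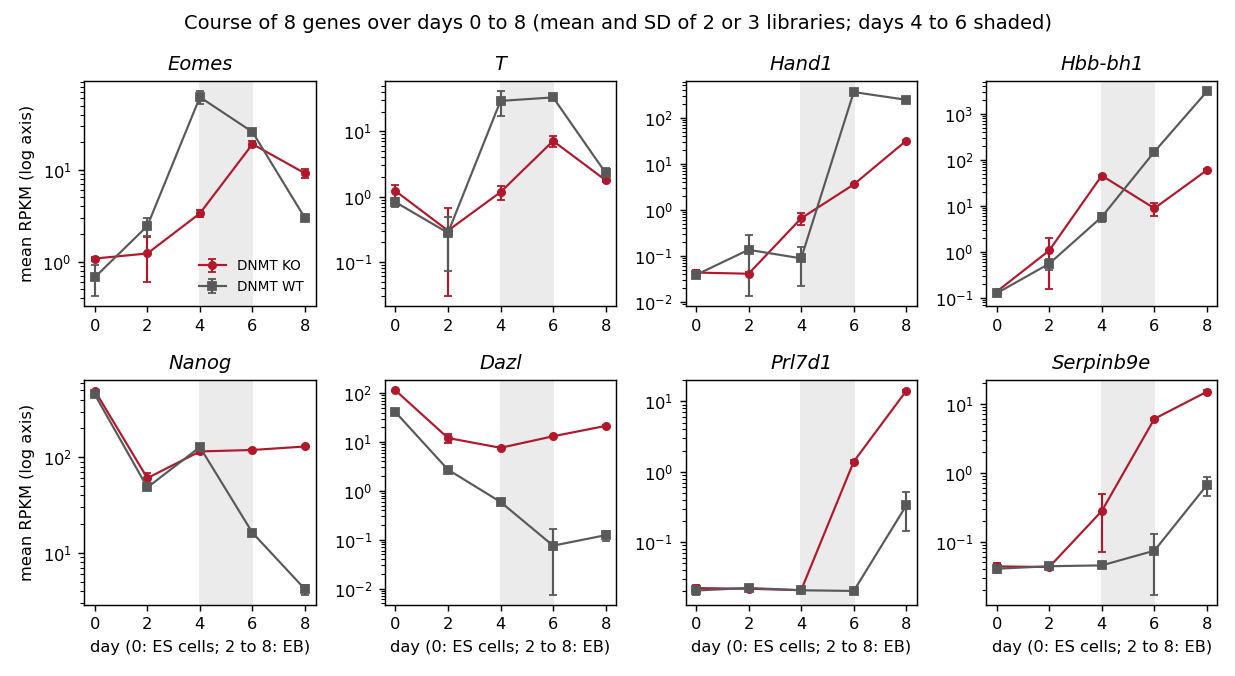
Mean RPKM (log axis, bars SD of 2 or 3 libraries, with lower bars limited to 90% of the mean) of 8 genes in ESCs (day 0) and embryoid bodies at days 2 to 8, in DNMT KO (red circles) and DNMT WT (grey squares), with the day 4 to 6 step shaded. Genes without a read are drawn at the value the deposited table gives them; Eomes and T peak at day 6 in the knockout, Hbb-bh1 dips there, and Prl7d1 leaves its floor there.

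The difference of the step between lines was tested directly. Against DNMT WT the change was called more positive in DNMT KO for 998 genes (7.4%) and more negative for 784 (5.81%), and 119 of the 193 genes called in the knockout were among them. Against TET WT, with the same DNMT KO libraries, it was more positive for 950 (7.04%) and more negative for 1044 (7.74%). With each library centred on its median the second split became 1279 and 777, so its balance depends on the scaling. In TET WT at day 4, replicate 2 had 15.1% of its reads on Gm42418, a ribosomal RNA locus, against 0.0587% to 0.115% in the other TET WT libraries of these days, and without it the split was 1186 and 858. The comparison against TET WT shares its DNMT KO libraries with the one against DNMT WT, so the values are only set side by side. Relative to TET WT the changes were called for Hbb-bh1 (-6.20), Hba-x (-2.67), Hbb-y (-2.47), Hand1 (-7.19), Pmp22 (-2.95), Eomes (2.52), Pou5f1 (3.28) and Mmp9 (3.12). For Mixl1 the difference was 0.53 (adjusted p = 0.163) and for T 0.73 (adjusted p = 0.0123), neither of them called, where those against DNMT WT were 3.31 and 1.96. Cer1 was called in both comparisons with opposite signs, -1.765 against TET WT and 1.15 against DNMT WT.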

How the data were processed

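The deposited values are log2 RPKM per gene for 79 libraries, computed by the authors. The submitters' processing notes name HISAT2 2.1.0, cutadapt 1.18, Trim Galore 0.6.1 and the build GRCm38. How reads were counted, and on which annotation, is not given in the sources used here. Of 35269 entries, 39 that repeat an identifier were left out. In the deposited log2 values a gene without a read stands at 0.9 reads, and 96.9% of values of 1 to 20 reads were whole within 0.1 read given merged exon lengths of GENCODE M21 (35208 genes matched), so whole reads were recovered and used for read counts and for 1 alternative.

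The main test was limma 3.58.1 (R 4.3.3, trend and robust) on log2(RPKM + 0.5) over the 23 libraries of 4 genotypes at days 4 and 6 (7.76 to 12.9 M reads), for the 13489 genes that reached 1 RPKM in 2 or more of them. All adjusted p-values are limma's with Benjamini-Hochberg adjustment over these genes. Scripts were tested on simulated data. Replicates correlated at 0.992 to 0.994 across genes, and every pair differed by more than sampling noise (chi-square per gene 2.29 to 3.47). The genes, promoters and 40 lists described were chosen with earlier results of these data known. Named are the deleted genes, the 15 largest rises and falls with non-overlapping libraries and a mean of at least 5 RPKM, up to 4 called members of each list (2 by level where none is called), and the 10 largest differences from DNMT WT each way. Other list members, the placental genes, Tinagl1 and Hoxd9 where outside that rule, were named after their values were seen. Some genes that fall under the rule are not reported here. Alternatives changed the pseudocount, filter, scaling, model, samples and replicate block. Promoters are RefSeq windows on GRCm38.p6, available for 10099 of the tested genes.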

Additional observations from a re-analysis of the deposited data

Results flagged for a closer look

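The day 4 to day 6 change differed between lines by the interaction contrast of the limma fit. Against DNMT WT it was more positive in DNMT KO for 998 genes and more negative for 784, and against TET WT for 950 and 1044. The most negative named differences against DNMT WT, on the log2 scale, were those of Hand1 (-7.43), Hbb-bh1 (-6.93), Foxf1 (-5.91), Adgra2 (-5.78), Hba-x (-5.58) and Hand2 (-4.97). Snai2 (-4.83), Rgs5 (-4.82), Nrp1 (-4.82) and Pitx1 (-4.76) followed, genes of mesenchyme, vessel wall, axon and vessel guidance and hindlimb. The most positive were those of Wnt8a (4.28), the non-coding RNA Platr10 (3.91), L1td1 (3.74), Utf1 (3.62), Eomes (3.58) and Nr0b1 (3.57). Dppa5a (3.55), Foxd3 (3.54), the metallothionein Mt2 (3.47) and Gsc (3.45) followed.

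A signal also appeared in libraries outside the comparisons. At day 8, not used in the fit, the 26 prolactin family genes held at least 1498 reads in each DNMT KO library, against 16, 99 and 47 in the 3 DNMT WT libraries.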

How the results depend on the processing

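Calls in DNMT KO depended on how low values were treated. They were 255 higher and 101 lower with a pseudocount of 0.1 RPKM, and 98 higher and 29 lower with 1 RPKM, where 14 named genes lost their call (Fgf8, Tie1, Hand2, Cnn1, Tgfbi, Col5a1, Tcstv3, Usp18, Cer1, Bmp5, Bmp2, Ccnd2, Rgs5 and Prl6a1). A filter of 5 RPKM, which tests fewer genes, gave 91 and 29 in DNMT KO, 576 and 614 in DNMT WT, 580 and 476 for the difference from DNMT WT, and 535 more positive against TET WT. Quantile normalization gave 80 lower in DNMT KO. Limma-voom on recovered reads gave 331 and 122 in DNMT KO, 1497 lower in DNMT WT and 1474 more positive against TET WT, and kept 192 of the 193 calls. Apart from the filter, the cause was not tested. Median centring moved the median difference against TET WT from -0.127 to 0.05.

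With the replicate number as a block the counts were 145 and 47 in DNMT KO, 937 and 970 in DNMT WT, 1009 and 770 against DNMT WT and 949 and 1044 against TET WT. Same-numbered libraries did not deviate together (correlations -0.051 to -0.005), so the numbers were not taken as pairs.

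Leaving out 1 library at a time gave 144 to 158 higher and 46 to 60 lower in DNMT KO, 940 to 1005 and 954 to 1004 in DNMT WT, 960 to 1018 and 769 to 812 against DNMT WT, and 856 to 1186 and 858 to 1219 against TET WT. Signs reversed in 6 genes that were not called. Dnmt3a was -0.046 with centring, -0.098 with quantile normalization and -0.026 to 0.075 with a library left out. Eef1a1 was -0.008 and -0.138, and Atp2a2 0.006 and H2-K1 0.004 with quantile normalization. With a library left out H2-K1 ranged from -0.055 to 0.009, Hoxc4 from -0.164 to 0.054 and Adgra2 from -0.136 to 0.03. Depth limits genes with few reads, and intervals cover counting error only.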

Other observations

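Glycolysis and hypoxia genes had small positive changes in DNMT KO. Of 24 tested members 3 were called higher and 0 lower, 16 were higher by adjusted p alone, and 95.8% had a positive log2 change beside 53.9% of all genes tested (median 0.457). The list rose in the wild-type lines as well, with 4 called higher in DNMT WT (median 0.205) and 5 in TET WT (median 0.463). Car9, a carbonic anhydrase induced by low oxygen, measured 0.0358, 0.0398 and 0.171 RPKM at day 4 and 1.5, 1.29 and 1.33 at day 6, while the 5 DNMT WT libraries lay between 0.0336 and 0.0728. Adm, a vasodilator peptide, went from 0.848, 0.849 and 1.02 RPKM to 3.91, 3.49 and 4.76. Adm rose in DNMT WT too (log2 change 1.196), and the difference of 0.49 was not called (adjusted p = 0.257 by limma). Egln3, an oxygen-sensing prolyl hydroxylase, went from 14.3, 15.5 and 16.2 RPKM to 32.9, 35.4 and 33.7 (log2 change 1.13, adjusted p = 1.9e-08). The summed level of the list was 3077 to 3204 RPKM at day 4 and 3891 to 3974 at day 6. DNMT WT stood higher at both days, at 4528 to 4635 and then 5137 to 5180.

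Of 11 basement membrane genes Col4a2, a collagen chain, rose from 13.8 ± 0.859 to 31.0 ± 1.6 RPKM (SD, n = 3), and 7 were higher by adjusted p alone. Cyp26a1, which degrades retinoic acid, rose from 5.37, 3.88 and 3.87 RPKM to 17.92, 17.78 and 17.35, the only 1 of 10 retinoic acid genes called. Of 9 smooth muscle genes Acta2 rose (log2 change 1.36) and Cnn1 fell (-1.07), a call that was lost without DNMT KO day 4 replicate 2 or day 6 replicate 1. Of 21 cell cycle genes Cdkn1c and Ccnd2 rose. Tcstv3 fell among 10 tested genes of the 2-cell stage (log2 change -1.22), a call that was lost without DNMT KO day 4 replicate 2 (adjusted p = 0.0521 by limma), and Usp18 rose among 16 interferon response genes (1.27). None of 18 p53 targets, 9 MHC, 13 Notch, 13 mitochondrially encoded, 14 housekeeping and 15 other DNA methylation genes was called in DNMT KO. With 1.43% of all genes tested called, counts of 0 or 1 in lists of this size, here and in the paragraphs above, are near that background.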
